A study of Mus musculus with 15 samples.

Results

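Interferon response and MHC class I genes were followed across cultured mouse bone marrow endothelial cells (BMECs), sorted lung cells and bone marrow mesenchymal stromal cells (BM MSC). The members were 35 named genes, taken by symbol from the 44674 genes of the count table, and all 35 were found there. Of these, 34 passed the filter on low counts, and Cd74 did not. By role they were 7 cytoplasmic sensor and transcription factor genes, 13 antiviral effectors, 5 interferon-inducible GTPases, 6 antigen processing genes and 4 genes of the MHC chains, which are B2m, H2-K1, H2-D1 and the class II invariant chain Cd74.

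Whole bone marrow (WBM) or lung cells of adult Tie2-CreERT2;Rosa26-tdTomato mice, in which tamoxifen switches on tdTomato in cells that use the Tek promoter, were grown in endothelial medium. By the methods, tdTomato+ CD45- cells of the primary culture (passage P0) were sorted with or without surface endomucin (Emcn) into P0 Emcn+ and P0 Emcn- BMECs, and the lung cells were Emcn-. Emcn- BMECs were also collected at passages P1, P2, P3 and P4. BM MSC came from the marrow of Osx-Cre;Rosa26-tdTomato mice and were grown in a different medium. The 2 kinds of culture thus differed in mouse line and medium as well as in the cell type they are named for. The labels give the genotype of every sample as WT, and no interferon or other stimulus is named. Each of 7 conditions had 2 libraries and P4 had 1, 15 in all, with total counts of 9914620 to 39718807. The labels name 4 batches: P0 and lung replicates 1 belong to batch d and replicates 2 to batch a, passaged replicates 1 and P4 belong to batch b, and passaged replicates 2 and both BM MSC libraries belong to batch c. The study describes the RNA-seq replicates as independent biological samples and independent primary cultures as begun from different animals, while the labels tie no single library to a mouse. The p-values measure the spread between these libraries.

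The sorted populations were checked against marker genes. A list of 10 endothelial markers summed to 10626 to 12682 CPM (counts scaled to the library total) in P0 Emcn+ BMECs but to 69.9 to 275 CPM in P0 Emcn- BMECs, 166 to 622 CPM in lung, 44.8 to 70.4 CPM in P1 to P4 and 42.7 to 362 CPM in BM MSC. The vascular cadherin gene Cdh5 was at 0.0564 to 0.185 CPM in P3. A list of 10 mesenchymal markers summed to 452 to 704 CPM in P0 Emcn+ BMECs to 18184 to 23706 CPM in P0 Emcn- BMECs, to 13671 to 14856 CPM in lung, to 4352 to 7763 CPM in P1 to P4 and to 15695 to 21126 CPM in BM MSC. The Emcn- BMECs and the lung cells are therefore named by their labels and their sort and not by these markers. A list of 18 macrophage markers summed to 1102 to 1347 CPM in P0 Emcn+, 360 to 413 CPM in P0 Emcn-, 27.9 to 32.7 CPM in lung, 109 to 320 CPM in P1, 52.9 to 55.1 CPM in P2, 17.3 to 22.7 CPM in P3, 13.2 CPM in P4 and 25.5 to 38.6 CPM in BM MSC. The macrophage list holds Mrc1, at 237 to 396 CPM in P0 Emcn+, which the study lists as a sinusoidal or venous endothelial marker. In bulk RNA, fewer cells that express a gene and less of its RNA per cell cannot be told apart.

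Interferons are secreted proteins by which cells announce infection. Type I interferon binds a receptor that activates a complex holding STAT2 and IRF9, which binds the interferon-stimulated response element (ISRE) in gene promoters. Interferon gamma acts mainly at the gamma-activated site (GAS). The induced genes include effectors that block viral RNA and protein synthesis, GTPases that attack intracellular microbes, and the proteasome subunits, peptide transporter and chains by which MHC class I displays peptides to T cells. Many cells keep a low level of these transcripts without infection, and endothelial cells carry MHC class I on their surface.

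The members lie in part in gene clusters of the mouse genome (GRCm38). Tap1, Tap2, Tapbp, Psmb8, Psmb9, H2-K1 and H2-D1 are the 7 members on chromosome 17, in the MHC. Ifit1 (chr19:34640871-34650009), Ifit2 (chr19:34550694-34576419) and Ifit3 (chr19:34583531-34588731) lie together on the plus strand, as do Gbp2 (chr3:142620602-142638008), Gbp3 (chr3:142560026-142573209) and Gbp7 (chr3:142530342-142550149). Such families, and H2-K1, H2-D1 and Oas1a, have close paralogs among which shared reads could have been split, so their single-gene counts are less certain.

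Promoters were read from RefSeq windows of GRCm38.p6, which run from 250 bases before to 50 bases after a start site. A window was found for 30 of the 35 members, the others being Nlrc5, Usp18, Parp14, Tap2 and Cd74. The ISRE core was searched as GAAANNGAAA on both strands (TTTCNNTTTC on the opposite strand), and the GAS as TTCNNNGAA, which is its own reverse complement. The ISRE core was present for 14 of the 30 members (46.7%) and for 3.99% of the 27025 genes with a window, or 3.43% of the 32817 windows. The GAS pattern was present for 9 of the 30 members (30%) and 9.55% of all genes. The stretches below are the 200 bases before the start site, 5′ to 3′ on the strand of the gene, with matches to the ISRE core in capitals. They are shown because Ifit3, Isg15, Rsad2, Bst2 and Gbp3 were among the members called higher in lung, and H2-K1 was not. This choice does not represent the whole list. Irf7, Oasl2, Ifi44 and Xaf1 were called higher in lung without a match in their windows. Ifih1, Oas1a, Gbp2 and B2m held a match and were not called.
Ifit3 (chr19:34583329-34583528, + strand): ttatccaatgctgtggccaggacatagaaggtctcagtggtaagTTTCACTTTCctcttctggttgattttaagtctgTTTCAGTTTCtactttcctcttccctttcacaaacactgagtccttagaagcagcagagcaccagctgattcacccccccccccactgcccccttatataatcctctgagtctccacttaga
Isg15 (chr4:156200819-156201018, - strand): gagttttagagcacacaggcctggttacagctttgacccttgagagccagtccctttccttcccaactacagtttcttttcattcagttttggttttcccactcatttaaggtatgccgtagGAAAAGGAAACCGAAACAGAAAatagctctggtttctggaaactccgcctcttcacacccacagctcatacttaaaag
Rsad2 (chr12:26456453-26456652, - strand): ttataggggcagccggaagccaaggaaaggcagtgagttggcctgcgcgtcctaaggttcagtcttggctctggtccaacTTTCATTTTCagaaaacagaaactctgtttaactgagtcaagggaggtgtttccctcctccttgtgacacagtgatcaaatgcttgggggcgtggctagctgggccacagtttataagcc
Bst2 (chr8:71537473-71537672, - strand): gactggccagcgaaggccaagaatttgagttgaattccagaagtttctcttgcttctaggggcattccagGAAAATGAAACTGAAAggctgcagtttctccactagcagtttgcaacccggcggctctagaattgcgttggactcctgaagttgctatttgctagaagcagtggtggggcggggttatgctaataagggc
Gbp3 (chr3:142559844-142560043, + strand): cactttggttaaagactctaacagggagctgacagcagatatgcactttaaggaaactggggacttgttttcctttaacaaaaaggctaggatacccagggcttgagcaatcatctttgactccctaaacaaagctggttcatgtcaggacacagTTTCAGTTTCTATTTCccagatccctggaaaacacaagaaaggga
H2-K1 (chr17:34000348-34000547, - strand): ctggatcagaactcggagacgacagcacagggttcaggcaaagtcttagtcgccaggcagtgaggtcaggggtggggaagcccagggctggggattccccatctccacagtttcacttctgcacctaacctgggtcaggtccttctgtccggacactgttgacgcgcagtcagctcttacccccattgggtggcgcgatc

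The 3 matches of Isg15 overlapped as 1 run, as did the pairs in Bst2 and Gbp3, while those of Ifit3 stood apart. No match to the core as searched was found in the H2-K1 window, which does not show that it lacks a response element of other letters. By role, the core was found for 5 of 5 GTPases, 6 of 11 antiviral effectors, 2 of 6 sensor and transcription factor genes (Ifih1 and Stat2), 1 of 3 MHC class I chain genes (B2m) and 0 of 5 antigen processing genes. Tap1 and Psmb9 point away from each other, and their windows share 275 bases (chr17:34187306-34187580). A match is a description of the letters and does not show binding.

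**Figure D1:**
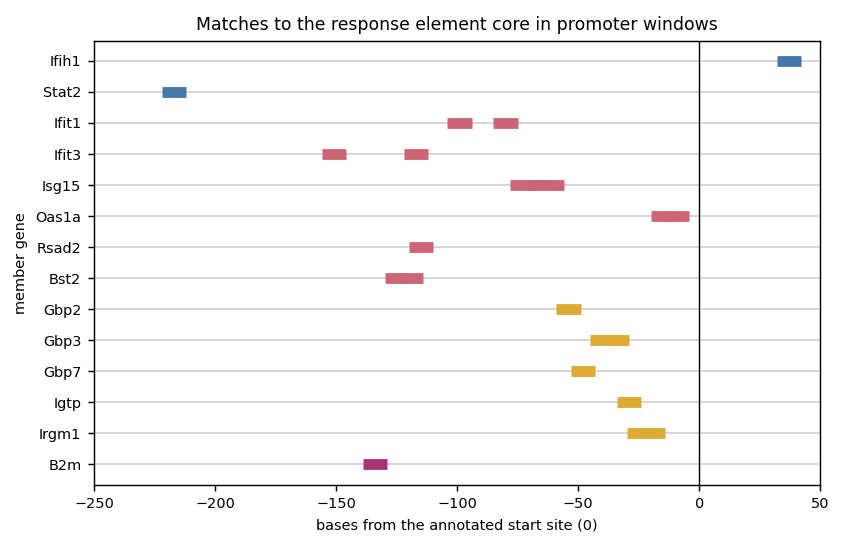
Positions of ISRE core matches (coloured bars) in the promoter windows of the 14 members that hold one, by distance in bases from the annotated start site at 0; colours stand for the role of the gene. All but 1 of the genes have their matches before the start site, and Ifih1 has its match 32 bases after it.

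Across conditions, the lung cultures had the highest mean CPM for 25 of the 34 members and P0 Emcn+ BMECs for 9. BM MSC had the lowest mean for 26. Lung replicate 1 alone was the highest library for 26 members. The 9 that peaked in P0 Emcn+ BMECs were Irf8, Nlrc5, Bst2, Tap2, Tapbp, Psmb8, B2m, H2-K1 and H2-D1, and all of these but Irf8 and Bst2 serve antigen display or, for Nlrc5, its transcription. Cd74 was at or near 0 in all conditions, with 8 counts in BM MSC, 2 in P0 Emcn-, 1 each in P0 Emcn+ and P2, and 0 in lung, P1, P3 and P4, where 3 counts, the limit that 0 allows, equal 0.0825 to 0.138 CPM in a library.

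**Figure D2:**
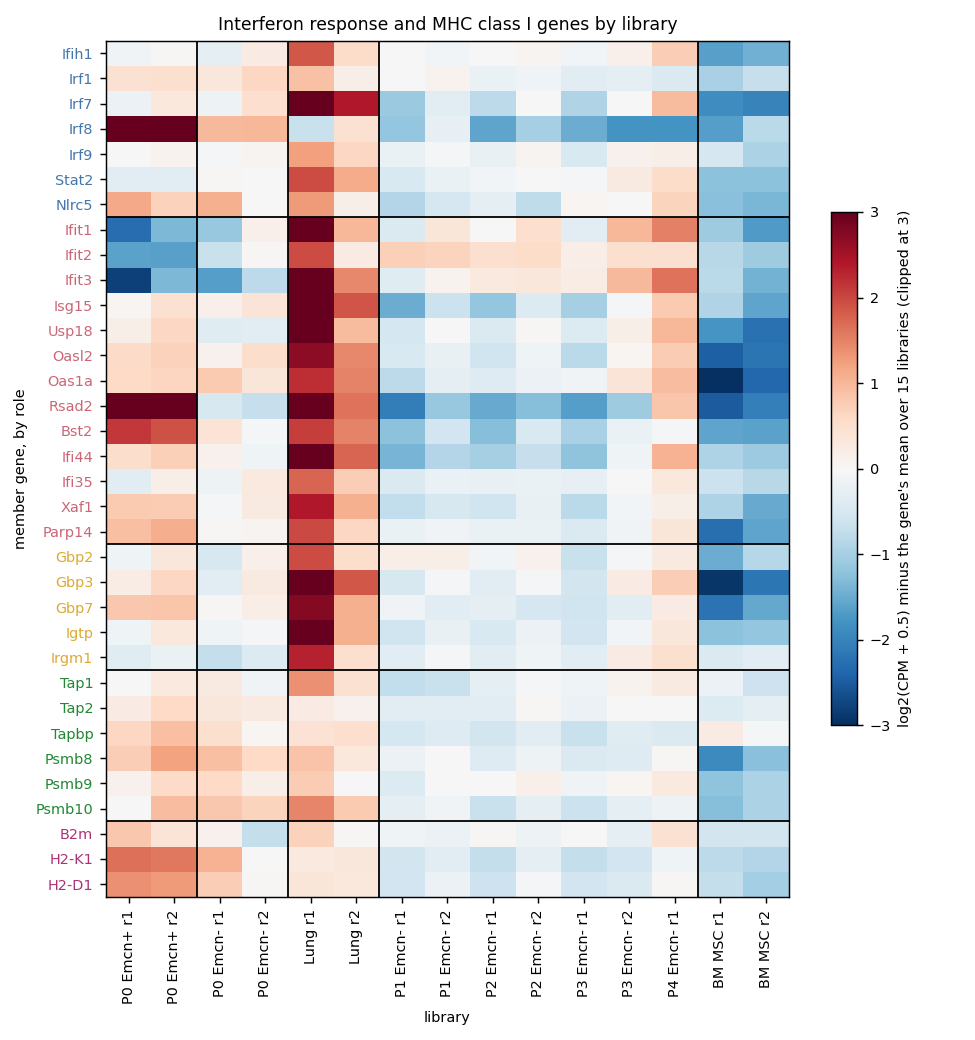
Heat map of the 34 members that passed the filter (rows, ordered and coloured by role) in the 15 libraries (columns, r1 and r2 for replicates), as log2(CPM + 0.5) minus the mean of the gene over all libraries, clipped at 3. Lung replicate 1 is the highest library for 26 members, and the BM MSC columns are the lowest group for 26.

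P0 Emcn+ and P0 Emcn- BMECs were compared first, which asks how the sorted populations of 1 culture differ in these genes. The transcription factor gene Irf8 and the antiviral effector genes Rsad2 and Bst2 rose in Emcn+ cells, no member fell, and the other 31 tested were not called. To be called, a gene needed a log2 fold change beyond 1.5 in size and, in edgeR's quasi-likelihood test, a p below 0.05 after Benjamini-Hochberg adjustment over all genes. The background was 7.79% of all genes called higher and 11.4% called lower, against 3 and 0 of 34 members. The median log2 fold change was 0.28 over the members and -0.06 over all genes.

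Irf8 encodes a factor best known in myeloid and B cells. It was at 69.0 and 53.5 CPM in the P0 Emcn+ replicates, 3.63 and 3.73 CPM in those of P0 Emcn-, 0.828 and 2.40 CPM in lung, 0.111 to 1.29 CPM in P1 to P3, 0.11 CPM in P4 and 0.168 and 0.7 CPM in BM MSC. Both Emcn+ libraries stood above every other library, with a log2 fold change of 4.09 ± 0.69 (SE) over Emcn- (adjusted p = 0.0012). Of 18 macrophage markers, 5 were called higher in Emcn+ cells (Cd68, Mrc1, Fcer1g, Cd14 and Laptm5) and 0 lower. Mrc1 is also on the study's list of sinusoidal or venous markers. The 13 not called include Ptprc, Itgam, Adgre1, Csf1r, C1qa, C1qb, C1qc and Tyrobp, though all 18 had a positive log2 fold change. The part of macrophage RNA in the Irf8 level was not tested. Of the dendritic and B cell markers, 1 of 5 tested was called, Zbtb46, with a log2 fold change of 1.96. The summed level of that list was 36.4 to 38.5 CPM in Emcn+ against 9.29 to 12.3 CPM in Emcn-. Zbtb46 alone made up most of both sums, at 35.9 to 37.7 CPM in Emcn+ and 7.91 to 11.7 CPM in Emcn-. Of the 5 tested, 2 had a positive and 3 a negative log2 fold change, with a median of -0.47, so the sum does not stand for the list.

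Rsad2 encodes viperin, an enzyme that makes a chain-terminating nucleotide against viral polymerases. It was at 41.9 and 86.4 CPM in the Emcn+ replicates and at 3.15 and 2.62 CPM in the Emcn- replicates (log2 fold change 4.48 ± 0.93, adjusted p = 0.0041). Bst2 encodes tetherin, which holds budding virions at the cell surface. It was at 241 and 207 CPM in Emcn+ and at 73.2 and 53.5 CPM in Emcn- (log2 fold change 1.85 ± 0.35, adjusted p = 0.0026). For both genes the groups did not overlap.

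The MHC class I chain genes moved by less than the fold change limit. The heavy chain genes H2-K1 and H2-D1 had log2 fold changes of 1.03 ± 0.28 (adjusted p = 0.017) and 0.93 ± 0.26 (adjusted p = 0.0191), and the light chain gene B2m 0.89 ± 0.31 (adjusted p = 0.05). H2-K1 was at 670 and 638 CPM in Emcn+ and at 441 and 214 CPM in Emcn-, and H2-D1 at 803 and 752 against 519 and 318 CPM. The Emcn- replicates lay far apart in both genes, and both were below both Emcn+ libraries. Without P0 Emcn- replicate 1, H2-K1 was called, at 1.66, and Ifit2 was called lower, at -1.62.

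The Ifit genes, whose proteins bind viral RNA, had the opposite sign. Ifit2 was at 13.7 and 13.6 CPM in Emcn+ and at 26.5 and 43.6 CPM in Emcn- (log2 fold change -1.32 ± 0.45, adjusted p = 0.0438, within the fold change limit). Ifit1 was at 10.6 and 20.9 against 24.1 and 60.3 CPM and Ifit3 at 12.5 and 34.9 against 28.3 and 51.8 CPM, both not called, and for Ifit3 the groups overlapped. The 6 antigen processing genes and the 5 GTPase genes had no call.

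Other interferon-stimulated genes (51 listed, 50 tested) gave 2 calls higher, Gbp4 and Gbp9, and 7 lower, Oas2, Slfn8, Ifitm1, Ifitm2, Ifitm3, Ifi204 and Ifi27l2a. These counts are near the shares of all genes, 7.79% called higher and 11.4% called lower. The median log2 fold change of the list was 0.14, with 28 genes positive and 22 negative. Gbp4, a GTPase gene of the same family as Gbp3, had a log2 fold change of 4.64 ± 0.86 (adjusted p = 0.00214). Oas2, for an enzyme that makes the activator of RNase L, was at 2.06 to 2.67 CPM in Emcn+ and 25.5 to 32.2 CPM in Emcn- (log2 fold change -3.57 ± 0.26, adjusted p = 7.25e-06). Among 13 other MHC class I genes, H2-Q6 was called higher (log2 fold change 2.93) and H2-T23 lower (-1.55). The H2-Q6 value ran from 2.12 to 5.50 when 1 library was left out, the highest without P0 Emcn- replicate 1, and its call was lost in the fit of the compared groups alone (adjusted p = 0.0881). For H2-T23, leaving out P0 Emcn- replicate 2 gave -1.38 and leaving out P0 Emcn+ replicate 1 gave -1.49, and neither was called.

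**Figure D3:**
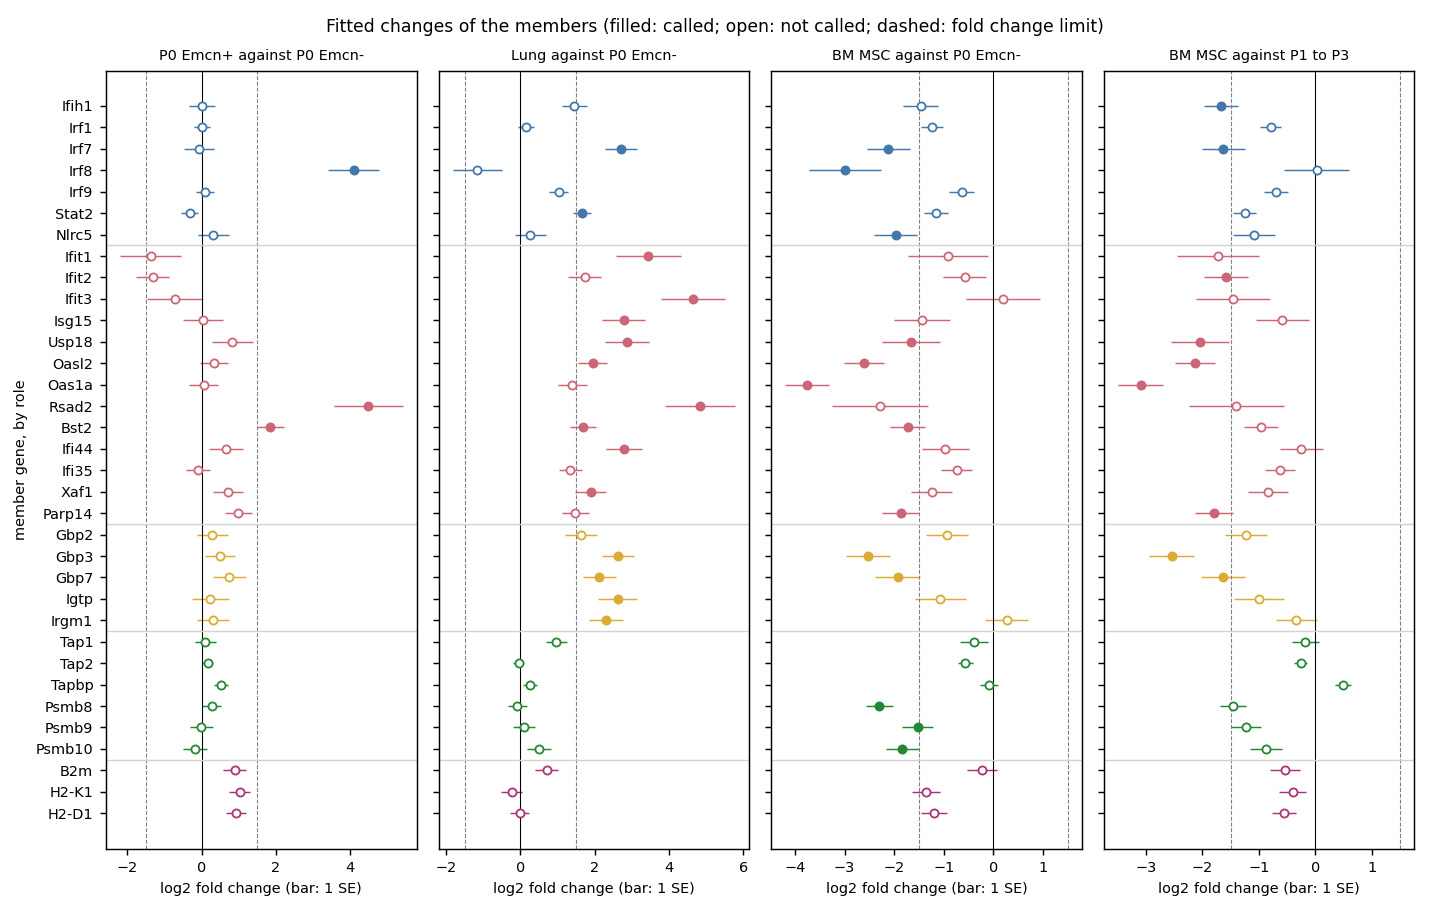
Fitted log2 fold change (points) with 1 SE (bars) of each member in 4 comparisons, by role; filled points were called, open points were not, and dashed lines mark the fold change limit of 1.5. The first panel has 3 filled points above the limit, the second 15, and the third and the last have 13 and 9 below it.

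Lung Emcn- cells were compared with P0 Emcn- BMECs, which sets the organs side by side within batches a and d. In lung, 15 of 34 members rose and 0 fell, where 2.13% of all genes were called higher and 1.7% lower. The median log2 fold change was 1.56 over the members and 0 over all genes. The calls covered 9 of 13 antiviral effectors (Ifit1, Ifit3, Isg15, Usp18, Oasl2, Rsad2, Bst2, Ifi44 and Xaf1), 4 of 5 GTPases (Gbp3, Gbp7, Igtp and Irgm1), and 2 of 7 sensor and transcription factor genes (Irf7 and Stat2). None of 6 antigen processing genes and none of the 3 class I chain genes tested was called, with 1 of each at an unadjusted p under 0.05.

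These calls rested on few libraries. A fit of the 4 compared libraries alone called 0 members, with 23 of 34 at an unadjusted p under 0.05 and a lowest adjusted p of 0.0602, while DESeq2 on all libraries called 17. Without lung replicate 1 the count was 4, without P0 Emcn- replicate 1 it was 1 (Stat2), without P0 Emcn- replicate 2 it was 4, and without lung replicate 2 it was 20.

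The lung replicates themselves differed. On TMM-scaled CPM, replicate 1 (batch d) exceeded replicate 2 (batch a) in 32 of 34 members. It did so by over 2-fold in 18 (52.9%), where 4.19% of all genes exceeded that ratio. The direction against P0 Emcn- BMECs, also on TMM-scaled CPM, was higher in both batches for 27 members (79.4%) and for 28.6% of all genes. On CPM by library totals, the log2 ratio of lung to P0 Emcn- in the 15 called members was 1.67 to 5.84 in batch d and 0.81 to 2.33 in batch a. Summed macrophage markers in lung, 27.9 to 32.7 CPM, were below those of P0 Emcn- BMECs, and 15 of the 18 were called lower and 0 higher.

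**Figure D4:**
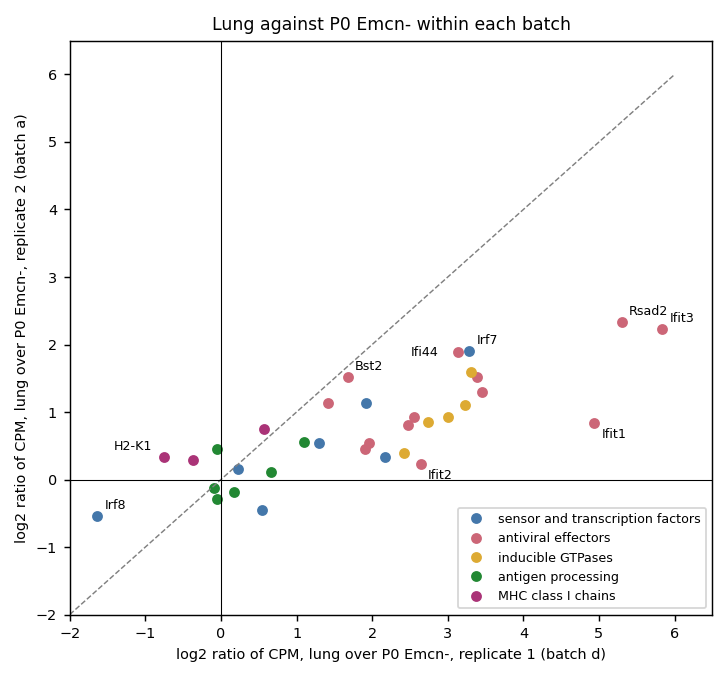
Log2 ratio of CPM by library totals (with 0.5 CPM added) of lung over P0 Emcn- BMECs in batch d (horizontal axis) and batch a (vertical axis) for 34 members, coloured by role. The dashed line marks equal ratios. Effector and GTPase genes lie right of and below the line, from 1.67 to 5.84 on the horizontal axis among the called members, and antigen processing and class I chain genes lie between -0.75 and 1.10 on it.

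Irf7, the factor that amplifies type I interferon production, was at 225 and 135 CPM in lung replicates 1 and 2 and at 22.7 and 35.7 CPM in the P0 Emcn- libraries (log2 fold change 2.71 ± 0.44, adjusted p = 0.0074). Stat2, which carries the type I signal, was at 385 and 214 against 101 and 97.1 CPM (log2 fold change 1.67 ± 0.24, adjusted p = 0.0046). In both genes the lung libraries were above all 13 others. The RNA sensor gene Ifih1 (186 and 74.5 against 41.1 and 59.3 CPM) and Irf9 (119 and 78.4 against 48.3 and 53.7 CPM) had log2 fold changes of 1.46 and 1.03, within the limit.

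Among effectors, Ifit3 was at 1646 and 244 CPM in lung replicates 1 and 2 and at 28.3 and 51.8 CPM in the P0 Emcn- libraries (log2 fold change 4.65 ± 0.86, adjusted p = 0.013). Ifit1, its neighbour, was at 754 and 108 against 24.1 and 60.3 CPM (log2 fold change 3.45 ± 0.87, adjusted p = 0.0498), a call that was lost with batch terms (adjusted p = 0.0865) and in 13 of the 15 fits that left out 1 library. Both lung libraries were high in both genes, and replicate 1 stood far above replicate 2. Rsad2 was at 143 and 15.2 CPM against 3.15 and 2.62 CPM (log2 fold change 4.84 ± 0.94, adjusted p = 0.0167). Isg15, the ubiquitin-like modifier, was at 189 and 59.9 against 17.5 and 20.7 CPM (log2 fold change 2.78 ± 0.58, adjusted p = 0.0223), and Usp18, the protease that removes it, at 131 and 29.6 against 11.5 and 11.7 CPM (2.87 ± 0.58, adjusted p = 0.0206). Bst2 had the smallest gap between lung replicates among the called effectors, at 235 and 154 CPM against 73.2 and 53.5 CPM (1.69 ± 0.35, adjusted p = 0.0229).

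Of the 5 GTPase genes, 4 rose in lung, from both families. Gbp3 was at 218 and 99.6 CPM against 21.6 and 32.7 CPM (log2 fold change 2.64 ± 0.43, adjusted p = 0.0082). Igtp, an immunity-related GTPase gene, was at 143 and 34.2 against 14.8 and 15.6 CPM (2.62 ± 0.53, adjusted p = 0.0196), and Irgm1 at 424 and 123 against 52.4 and 64.6 CPM (2.31 ± 0.46, adjusted p = 0.0179). Gbp2 was not called, at 193 and 71.7 against 35.7 and 54.7 CPM (1.64 ± 0.43, adjusted p = 0.0565), with a log2 ratio of 2.42 in batch d and 0.39 in batch a. The class I heavy chain genes had no call: H2-K1 was at 262 and 269 CPM in lung against 441 and 214 CPM, and H2-D1 at 401 and 388 against 519 and 318 CPM, with the lung values between those of the Emcn- replicates. B2m was higher in lung within each batch and was not called, at 1403 and 889 against 948 and 529 CPM (log2 fold change 0.70 ± 0.31, adjusted p = 0.266). The peptide transporter gene Tap1 was not called either, at 115 and 60.8 against 53.1 and 41.1 CPM (0.97 ± 0.29, adjusted p = 0.0924). The proteasome subunit gene Psmb8 was at 38.6 and 26.3 against 39.9 and 32.4 CPM.

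Of the promoter windows, 10 of the 14 members with the ISRE core were called higher in lung, with a median log2 fold change of 2.22 and a range of 0.7 to 4.84. Of the 16 tested members with a window and no match, 4 were called, with a median of 0.74 and a range of -1.16 to 2.80. These are descriptions of a chosen list, and the roles and the matches overlap. Other interferon-stimulated genes gave 26 calls higher and 0 lower of 50 tested, with a median of 1.67, among them Tgtp1 (8.02 and 60.0 CPM against 0 and 0.655 CPM as the lowest and highest library), Ifit3b (log2 fold change 5.00) and Cmpk2 (4.13). The 13 other MHC class I genes gave 0 calls. Of these, 2 were higher at an adjusted p under 0.05 but within the fold change limit. The fit of the compared groups alone did not call Tgtp1, Ifit3b or Cmpk2.

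**Figure D5:**
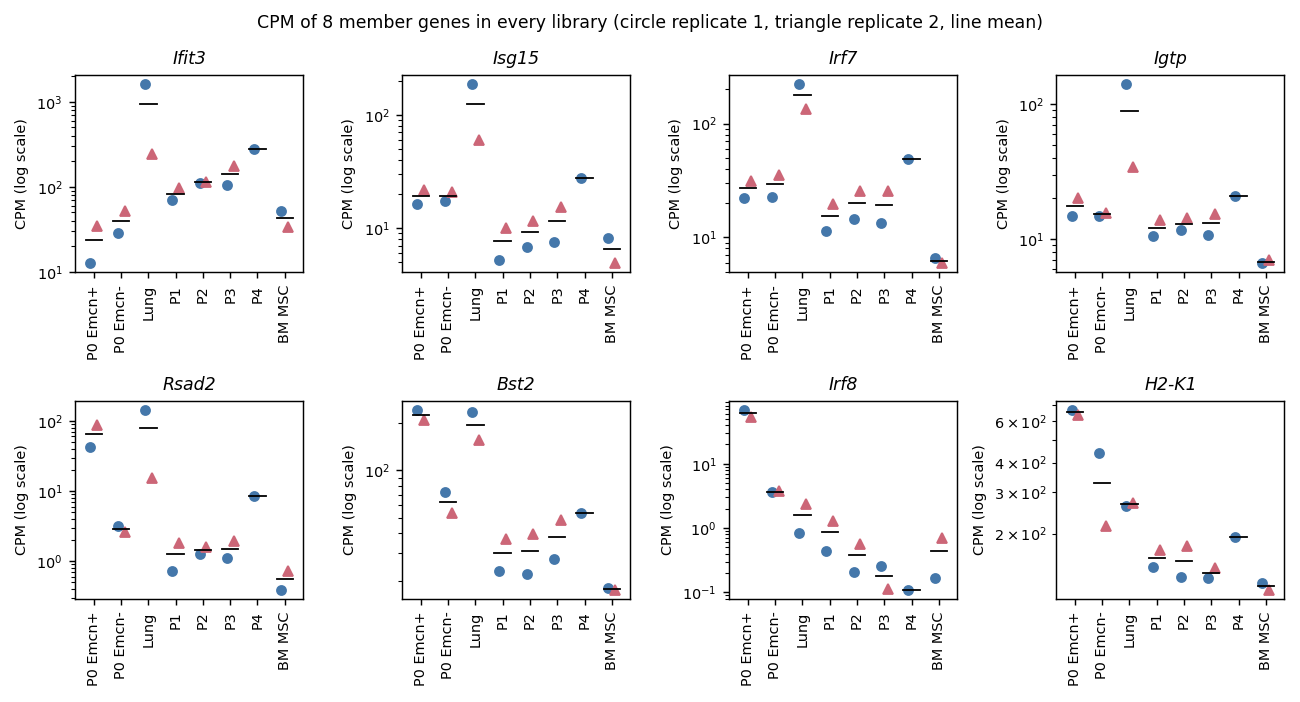
CPM on a log scale of 8 members in every library by condition, with circles for replicate 1, triangles for replicate 2 and lines for the mean of the group. Ifit3, Isg15, Irf7 and Igtp are highest in lung, Rsad2 and Bst2 are high in P0 Emcn+ and lung, and Irf8 and H2-K1 are highest in P0 Emcn+.

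BM MSC were compared with P0 Emcn- BMECs and with the passaged Emcn- BMECs of P1 to P3. Against P0 Emcn-, 13 of 34 members fell and 0 rose, where 7.45% of all genes were called lower and 11.3% higher, and the median log2 fold change was -1.30 against 0.01 over all genes. No batch holds libraries of both groups, so the batch cannot be told apart from the condition. Against the mean of P1 to P3, 9 of 34 fell and 0 rose, where 5.81% of all genes were called lower and 8.42% higher, with a median of -1.04 against 0.01. Batch c holds BM MSC and passaged libraries, and a fit of batch c alone, chosen after seeing the data, called 13 lower and 0 higher. That fit took the P1, P2 and P3 libraries as replicates of 1 group. They are successive passages, and deviations of same-numbered P1 to P3 libraries correlated by 0.354 to 0.451, so its spread may be too small. The share of all genes called in it is not given, so its count is not comparable with the 9. Without BM MSC replicate 1, 5 were called lower. The comparisons share the BM MSC libraries, and their values are given side by side. BM MSC replicate 2 held 156 CPM of Cdh5 against 7.86 CPM in replicate 1.

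Oas1a, an oligoadenylate synthetase gene, was at 0.617 and 1.74 CPM in BM MSC, 19.2 and 14.1 CPM for P0 Emcn- replicates and 6.07 to 14.4 CPM in P1 to P3. The BM MSC libraries lay below all others, with log2 fold changes of -3.75 ± 0.45 against P0 Emcn- (adjusted p = 0.000256) and -3.09 ± 0.40 against P1 to P3 (adjusted p = 0.000414). Its relative Oasl2 was at 10.9 and 13.2 CPM in BM MSC against 68.2 and 89.8 CPM for P0 Emcn- replicates and 35.6 to 65.1 CPM in P1 to P3 (log2 fold changes -2.62 and -2.13). Gbp3 was at 3.17 and 5.63 CPM against 21.6 and 32.7 CPM and 18.3 to 32.3 CPM (-2.53 and -2.54). Parp14, an ADP-ribosyltransferase gene, was at 17.4 and 28.4 CPM against 87.0 and 90.5 CPM and 63.7 to 80.0 CPM (-1.87 and -1.80). In each of these genes both BM MSC libraries were below every P0 Emcn- and every P1 to P3 library.

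The inducible proteasome subunits, which cut peptides for class I display, were lower in BM MSC than in P0 Emcn- BMECs. Psmb8 was at 5.30 and 8.55 CPM against 39.9 and 32.4 CPM in the P0 Emcn- libraries (log2 fold change -2.30 ± 0.27, adjusted p = 0.000256), Psmb10 at 5.81 and 7.37 against 26.2 and 23.8 CPM (-1.84 ± 0.33) and Psmb9 at 2.78 and 3.47 against 10.9 and 8.07 CPM (-1.52 ± 0.31). The Psmb9 value lay at the limit, and its call was lost without BM MSC replicate 1 (-1.40) or P0 Emcn- replicate 1 (-1.28), with RLE factors (-1.47) and with DESeq2 (-1.48). Against P1 to P3 none of the 3 was called, with Psmb9 at -1.22, Psmb10 at -0.87 and Psmb8 at -1.46, though Psmb8 was called in batch c alone, at -1.52, and with batch terms, at -1.51. The peptide loading gene Tapbp was at 145 and 120 CPM in BM MSC against 77.1 to 97.8 CPM in P1 to P3 (log2 fold change 0.49 ± 0.15, adjusted p = 0.0268, within the limit), and its log2 fold change against P0 Emcn- was -0.08 (adjusted p = 0.763). H2-K1 and H2-D1 had -1.36 and -1.19 against P0 Emcn-, within the limit.

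Irf7 was at 6.57 and 5.91 CPM in BM MSC, below all 13 other libraries, with log2 fold changes of -2.12 and -1.63. The call against P1 to P3 was lost in 5 of the fits that left out 1 library, those without replicate 2 of P1, P2 or P3 or without either BM MSC library, where the values ran from -1.74 to -1.46. Ifit3 was at 51.3 and 33.7 CPM in BM MSC and 28.3 and 51.8 CPM in P0 Emcn-, so the ranges overlapped, and Irgm1 at 63.7 and 68.2 against 52.4 and 64.6 CPM overlapped too. Irf8, at 6 and 23 counts in BM MSC, was called lower than in P0 Emcn- (log2 fold change -3.00 ± 0.73, adjusted p = 0.0105), and that call was lost without BM MSC replicate 1. The macrophage markers fell along with it, with 16 of 18 called lower in BM MSC than in P0 Emcn-. Their part was not tested.

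Other interferon-stimulated genes gave 18 calls lower and 0 higher of 50 against P0 Emcn- and 19 lower and 0 higher against P1 to P3. Oas2 was at 0.304 to 0.393 CPM in BM MSC (log2 fold changes -6.25 and -4.98), and Slfn2, a growth regulator gene of the Schlafen family, was at 0.674 to 0.913 CPM (-4.78 and -4.34).

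Passage was examined last. From P0 to P1 Emcn-, edgeR called 0 of 34 members higher and 0 lower, where 5.77% and 3.07% of all genes were called, with 12 members at an unadjusted p under 0.05 and a median log2 fold change of -0.49 against 0.02 over all genes. DESeq2 called 0 higher and 1 lower. Among the members H2-K1 had the lowest adjusted p, at 144 and 170 CPM in P1 against 441 and 214 CPM in P0 (log2 fold change -0.91 ± 0.28, adjusted p = 0.0496). Of 50 other interferon-stimulated genes tested, edgeR called 1 higher, Ifit1bl1, and 1 lower, Oas2 (log2 fold change -2.03 ± 0.24, adjusted p = 0.000501). Of 13 other MHC class I genes it called 2 lower, H2-Q6 and H2-Q7, and both calls were lost in some fits that left out 1 library. P0 and P1 share no batch, so batch and passage cannot be told apart.

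From P1 to P3, edgeR called 0 of 34 in either direction, where 0.0773% of all genes were called higher and 0.144% lower, with 2 members at an unadjusted p under 0.05. DESeq2 called 0. The median was 0.17 against -0.01 over all genes. The macrophage markers changed over the same passages, with 8 of 18 called lower in P3. Isg15 was at 5.29 and 10.0 CPM in P1, 6.80 and 11.7 CPM in P2 and 7.62 and 15.5 CPM in P3. At each passage replicate 2 was the higher, and this held at 3 of 3 passages for 22 of 34 members (64.7%) and for 26% of all genes, while the reverse held for 1 member.

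The single P4 library was above all 6 libraries of P1 to P3 in 30 of 34 members (88.2%), where 14.5% of all genes were. It was above the 3 libraries of its own batch b in 31 members (91.2%) and in 22.4% of all genes, and the median log2 ratio to P3 of batch b was 0.80 over the members and 0 over all genes. Irf7 was at 48.9 CPM in P4 against 11.3 to 25.5 CPM in P1 to P3, Rsad2 at 8.50 against 0.714 to 1.92 CPM, Ifit3 at 280 against 70.0 to 177 CPM, and Isg15 at 27.6 against 5.29 to 15.5 CPM. B2m was at 1200 CPM against 725 to 889 CPM. P4 was above in each of these genes, and with 1 library the difference has no replicate check. Summed macrophage markers were lower in P4 (13.2 CPM) than in any P1 to P3 library.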

How the data were processed

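RNA of sorted or passaged cultures was sequenced as bulk libraries (KAPA RNA HyperPrep). The authors mapped the reads to GRCm38 with STAR, estimated abundance with Salmon and deposited whole-number counts per gene, not normalized, for 44674 genes and 15 libraries; how the estimates were rounded to counts is not described. Groups, replicates and batches came from the labels. Members and gene lists were chosen with earlier results of these data known.

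Counts were tested with edgeR 4.0.16 in R 4.3.3: filterByExpr (minimum count 10, minimum total 15; 19401 genes), TMM factors, 1 coefficient for each of 8 conditions, and the quasi-likelihood test (7 residual and 3.07 prior degrees of freedom), with Benjamini-Hochberg adjustment over all genes tested. CPM values used library totals, without TMM. Counts by direction and median ratios between single libraries used TMM-scaled CPM. These are the values for the lung replicates, for lung in both batches, for the P1 to P3 replicates and for P4. The SE is the log2 fold change over the square root of F. All members are named, and from other lists at most 3 called genes of largest change with a mean of at least 10 CPM, besides genes given as counts. The names of genes called in a list, the receptor, ligand and class II genes, and the choice among members for full values were made after seeing the data. Of 25 ligand, receptor and signalling genes, 23 matched the table.

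Alternatives were DESeq2 1.42.0, RLE factors, library totals alone, no filter, at least 50 counts in 2 libraries, only the compared groups, batch terms (replicate block), batch c alone, calls with no limit on fold change and 1 library left out at a time; library totals alone and batch c alone were added after seeing the data. By the labels, same-numbered libraries are of 1 batch among P0 and lung libraries and among P1 to P3; their deviations from group means correlated by 0.139 to 0.209 and by 0.354 to 0.451. Replicates differed beyond counting noise (38.6 to 129 as chi-square over its degrees of freedom). Limits for 0 counts cover counting error only. Tested on simulated counts for lung against P0 Emcn-, with 18338 genes, 88 of 100 genes changed by log2 2 and 91 of 100 by log2 3 were called.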

Additional observations from a re-analysis of the deposited data

How the results depend on the processing

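Without the fold change limit, 6 members were higher and 1 lower in P0 Emcn+ than in P0 Emcn-, 20 were lower in BM MSC than in P0 Emcn-, 1 was lower in P1 than in P0 Emcn-, and 1 was higher and 18 were lower in BM MSC than in P1 to P3. Without a filter and with DESeq2, 1 member was lower in P1. The fit of the compared groups alone gave 0 members higher in lung, where fewer libraries set the spread. The replicate block, which pairs libraries by batch, gave 3 higher in P0 Emcn+, 14 in lung (the Ifit1 call was lost, adjusted p = 0.0865), 15 lower in BM MSC than in P0 Emcn- and 10 lower than in P1 to P3; it brought Ifih1 (adjusted p = 0.0201) and Isg15 (adjusted p = 0.0241) past the threshold in BM MSC against P0 Emcn- and Psmb8 against P1 to P3, changed no other call of a member, and ended the call of H2-Q6 in P1 (adjusted p = 0.0665). Leaving out 1 library at a time, with a lone library assumed to vary like the other groups, gave 1 to 20 higher in lung, 3 to 4 higher and 0 to 1 lower in P0 Emcn+, 9 to 14 lower in BM MSC than in P0 Emcn-, 0 to 1 lower in P1, and 5 to 10 lower in BM MSC than in P1 to P3. H2-Q6 in P1 against P0 Emcn- ran from -3.35 to 0.035 in these fits, the sign turning without P0 Emcn- replicate 1. The causes were not tested. Over 80 gene and comparison pairs and 1776 fits, 1624 kept direction and side of the threshold, 135 fell under it, 16 passed it and 1 turned. Library totals alone moved the median of all genes in P1 against P0 Emcn- from 0.02 to -0.12. Groups of 2 libraries limit what can be called.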

Other observations

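The interferon genes looked up, Ifnb1, Ifna4, Ifng, Ifnl2 and Ifnl3, were nearly silent, and other interferon genes were not examined. Ifng, Ifnl2 and Ifnl3 had 0 counts in all 15 libraries, where 3 counts, the limit that 0 allows, equal 0.0755 to 0.303 CPM in a library. Ifnb1 had 8 counts and Ifna4 1 count over the lung libraries, all in replicate 1, and 0 counts elsewhere. Ifnar1, for a chain of the type I receptor, was at 240 to 266 CPM in P0 Emcn+, 101 to 117 CPM in P0 Emcn-, 81.8 to 119 CPM in lung, 57.9 to 80.3 CPM in P1 to P3 and 78.3 to 83.9 CPM in BM MSC. Ifngr1, for a chain of the interferon gamma receptor, was at 389 to 550 CPM in P0 Emcn+ and 80.2 to 131 CPM in BM MSC. These groups share no batch and were not tested against each other. Of the 18 ligand, receptor and signalling genes tested, edgeR called 1 higher and 1 lower in P0 Emcn+ (Tlr3, at a log2 fold change of 1.76, and Socs1) and 0 in lung. In lung, 6 had an unadjusted p under 0.05, and 1 was higher at an adjusted p under 0.05 but within the fold change limit. In BM MSC against P0 Emcn-, 1 was called higher, Ifnlr1, and 2 lower, Socs3 and Irf5, where 11.3% and 7.45% of all genes were called. Socs3, which dampens cytokine signalling, fell from 112 to 138 CPM in P0 Emcn- to 33.1 to 41.5 CPM in P1 (log2 fold change -1.59, adjusted p = 0.0193). With 1 library left out at a time the Socs3 value ran from -1.74 to -1.45, across the fold change limit. P0 and P1 share no batch, so batch and passage cannot be told apart.

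MHC class II genes stayed low. H2-Aa had 0 or 1 count in every library, and Ciita, for the regulator of class II genes, was at 0.252 CPM or less. H2-Eb1 was at 0.789 to 0.833 CPM in P1, 1.29 to 1.43 CPM in P2, 1.81 to 1.93 CPM in P3 and 2.37 CPM in P4, so the ranges of successive passages did not overlap. The H2-Eb1 change was not called between P1 and P3. This gene was picked after seeing the data, P4 had 1 library, and the share of all genes with such an order was not counted. H2-DMb1, for a chain of the class II peptide loader, was at 18.2 to 21.3 CPM in BM MSC and at 1.13 to 6.19 CPM in all other libraries (log2 fold change 2.35 against P0 Emcn-, adjusted p = 0.000942).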
